A study of Mus musculus with 3 samples.

Results

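Trichohyalin (Tchh) and 5 keratins of the inner root sheath (IRS), Krt71, Krt73, Krt25, Krt27 and Krt28, were followed in single cells of mouse dorsal skin. These 6 genes were taken by symbol out of 19927 gene symbols counted in the series, and a gene that a library did not list was set to 0. The libraries came from mice at postnatal day (P) 18, when the first regression phase of the hair cycle is under way. Both control libraries carried the floxed Vdr allele on each chromosome (Vdr flox/flox) and no Cre. The third library carried the same floxed alleles and Krt14cre (Vdr flox/flox; Krt14cre, named Vdr cKO), in which the Krt14 promoter drives Cre in basal cells of the epidermis and the outer root sheath and in their progeny, and recombination removes exon 3 of Vdr, the vitamin D receptor. Skin was treated with trypsin and scraped, and, according to the methods of the study, 3 male mice were pooled for each library, so that single animals could not be told apart.

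The IRS is the rigid sheath that surrounds and moulds the growing hair shaft and is broken down higher in the follicle. Its cells assemble filaments from their own pairs of type I keratins (Krt25, Krt26, Krt27 and Krt28) and type II keratins (Krt71, Krt72 and Krt73). Trichohyalin fills the space between these filaments; peptidylarginine deiminases convert its arginines, and transglutaminases then cross-link it to the filaments.

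The loci lie on 3 chromosomes of the GRCm38 (mm10) build. In the GENCODE M21 annotation Tchh has 2 exons at chr3:93442330-93449077 on the plus strand and overlaps Gm37245, an antisense gene that no library listed. The type II genes Krt71 (chr15:101733949-101743109) and Krt73 (chr15:101793308-101802346) each have 9 exons on the minus strand. Between them lie Krt72 and Krt74, of which Krt74 is annotated as a transcribed unitary pseudogene. The type I genes Krt25 (chr11:99315516-99322951), Krt27 (chr11:99345565-99351104) and Krt28 (chr11:99364872-99374903) each have 8 exons on the minus strand, with Krt26 between Krt25 and Krt27. Keratin paralogs share sequence. Of the 50-base words of its transcript, Krt25 shared 10.9% with Krt15, Krt27 or Krt28, Krt27 shared 11.1% with Krt25 or Krt28, Krt28 shared 2.41%, Krt71 1.97% and Krt73 1.32%, whereas Tchh shared none; how the authors assigned reads that match several genes is not given in the sources used here, so counts of Krt25 and Krt27 in particular may be divided between paralogs.

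Promoter sequences are shown because all 6 genes were higher in the same library. The 250 bases before the RefSeq transcription start (GRCm38.p6) are printed 5′ to 3′ on the strand of the gene for Tchh (chr3:93442080-93442329, plus strand), for the neighbours Krt71 (chr15:101743098-101743347, minus strand) and Krt73 (chr15:101802361-101802610, minus strand), and for Krt28 (chr11:99374904-99375153, minus strand), the keratin that was not counted in the cells with the most Tchh. Capitals mark TATAAA, the letters of a TATA box, and 4 words known to be bound by GATA factors, of which Gata3 acts in the IRS: the word AGATAA, the related word AGATAG, and with a leading T instead the word TGATAA and the related word TGATAG.
Tchh: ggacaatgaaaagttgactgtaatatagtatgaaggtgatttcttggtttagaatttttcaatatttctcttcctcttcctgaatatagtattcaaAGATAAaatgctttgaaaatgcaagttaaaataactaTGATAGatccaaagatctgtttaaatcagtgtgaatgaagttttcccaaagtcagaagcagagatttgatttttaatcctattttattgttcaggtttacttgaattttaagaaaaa
Krt71: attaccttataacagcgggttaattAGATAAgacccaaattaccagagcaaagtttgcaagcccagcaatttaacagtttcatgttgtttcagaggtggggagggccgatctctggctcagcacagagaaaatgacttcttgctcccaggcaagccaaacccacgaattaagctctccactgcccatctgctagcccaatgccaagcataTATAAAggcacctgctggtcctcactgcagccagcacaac
Krt73: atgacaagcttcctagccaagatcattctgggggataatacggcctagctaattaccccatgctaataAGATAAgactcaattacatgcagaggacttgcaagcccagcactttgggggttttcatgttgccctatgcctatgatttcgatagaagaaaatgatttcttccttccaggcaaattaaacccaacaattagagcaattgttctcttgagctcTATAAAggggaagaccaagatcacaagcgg
Krt28: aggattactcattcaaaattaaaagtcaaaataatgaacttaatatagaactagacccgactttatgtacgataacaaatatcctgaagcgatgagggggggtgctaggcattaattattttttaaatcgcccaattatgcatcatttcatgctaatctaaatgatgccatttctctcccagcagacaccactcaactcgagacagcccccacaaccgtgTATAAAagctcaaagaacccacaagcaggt
TATAAA stood 40, 30, 30, 15 and 30 bases before the start of Krt71, Krt73, Krt25, Krt27 and Krt28, and was not among the letters of the Tchh window. A window of 250 bases before to 50 after the start held it in 13.6% of 32851 RefSeq promoters. One of the GATA-type words, searched on both strands, was in 5 of the 6 windows and in 29.8% of all windows: 154 and 117 bases before the start of Tchh, 225 of Krt71, 182 of Krt73, 194 of Krt25, and 212 and 183 of Krt27. Neither CTTTGAT, a word of Tcf and Lef factors (3.73% of all windows), nor AGGTCA, the core hexamer of sites of nuclear receptors that include Vdr (16.3%), was among the letters of any of the 6 windows. These matches describe the letters only.

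Before the levels are given, several features of the libraries bear on them. Barcodes were taken as cells from 200 detected genes upward if mitochondrial genes gave no more than 20% of their counts: 1480 in control 1, 1658 in control 2 and 2622 in the library labelled Vdr cKO, with 18802408, 28690129 and 30954897 counts and a median of 4190, 4492 and 4055 counts and 377, 502 and 688 genes per cell. The files count whole genes and not exon 3, so that the Vdr level (40.7, 35.9 and 80.8 CPM, the counts of a gene over all counts of a library, on a common scale) does not check the genotype. Xist, transcribed from the inactive X chromosome of females, was at 142 CPM in the library labelled Vdr cKO and had 0 counts in the kept cells of both controls, and 4 Y-linked genes summed to 234, 211 and 77.6 CPM; the statement that all mice were male and the counts of that library therefore do not match. Between 20 and 28 kept barcodes per library were also present in another library. Several, but not all, marker lists of other follicle and skin cells were higher in the same library as the members. The summed level of 7 basal or outer root sheath genes was 4878, 3422 and 13270.5 CPM, and that of 5 companion layer genes 687, 813 and 2359.8 CPM. That of 12 hair shaft or matrix genes was 4.68, 10.8 and 74.3 CPM, where 8, 7 and 2 of the 12 were at 0. The summed levels of 4 melanocyte genes were 4.10, 3.49 and 39.3 CPM, those of 5 bulge genes 73.6, 31.5 and 303 CPM and those of 6 cycling genes 87.5, 64.6 and 252 CPM, while 10 genes of differentiated epidermis summed to 102771, 110538 and 77440.4 CPM. The sum of 5 sebaceous genes, 2482, 1184 and 1376 CPM, lay between the controls, as did the sums of 5 fibroblast and 3 endothelial genes. Red blood cell genes (4) were lower, at 104, 463 and 62.5 CPM. The part of these differences in the results was not tested. Genotype, collection of follicle cells and library cannot be told apart with 1 library labelled Vdr cKO. No p-value was computed for the same reason. Intervals are 95% Poisson or exact binomial (Clopper-Pearson) intervals and cover at most counting error. Those of levels and of folds by counts treat counts as separate draws and leave out the clumping of counts in few cells. The rule by which copies of 1 molecule were collapsed is also not given in the sources used here. Such intervals are therefore narrower than the true uncertainty.

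Transcripts of the IRS were found mainly in the library labelled Vdr cKO. The 6 genes together reached 235 CPM there, against 0.585 CPM in control 1 and 2.54 CPM in control 2, and Tchh made up 72.9% of these 7277 counts, a share of counts that was not scaled by transcript length. At least 1 member was found in 379 cells (14.5%, interval 13.1 to 15.9), compared with 3 cells (0.203%, 0.0418 to 0.591) of control 1 and 8 cells (0.483%, 0.209 to 0.949) of control 2. At least 1 of the 5 keratins was found in 168 cells (6.41%), against 0 cells of control 1 and 3 cells (0.181%) of control 2. For the 0 of 1480 cells of control 1 the exact interval reaches 0.249%, and 3 counts, the floor used for a count of 0, are 0.203% of the cells.

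Tchh, the matrix protein of the sheath, had 11 counts in 3 cells of control 1, 8 counts in 5 cells of control 2 and 5306 counts in 256 cells of the library labelled Vdr cKO. The pooled levels were 0.585 CPM (0.292 to 1.05), 0.279 CPM (0.120 to 0.549) and 171 CPM (167 to 176). The controls overlapped in their intervals, and the third library lay 293-fold (164 to 587) above control 1 and 615-fold (312 to 1425) above control 2. The log2 fold over the mean of the controls was 6.91 after 1 CPM was added, against 0.31 between the controls. The share of cells with a Tchh count was 0.203%, 0.302% and 9.76% (8.65 to 11.0), which is 48.2-fold above control 1 and 32.4-fold above control 2.

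Krt71, the type II keratin whose mutation gives curly or wavy coats, had 575 counts in 60 cells of the library labelled Vdr cKO (18.6 CPM, 17.1 to 20.2) and was not among the listed genes of either control. Against the floor of 3 counts per library (0.160 CPM in control 1 and 0.105 CPM in control 2), it was at least 116-fold and at least 178-fold higher by counts. Folds by counts treat the counts of 1 cell as separate draws. In share of cells with a count, against a floor of 3 cells per library, Krt71 was 11.3-fold and 12.6-fold higher. Krt73, the type II keratin of the IRS cuticle, was likewise at 0 in both controls and had 157 counts in 21 cells (5.07 CPM, 4.31 to 5.93), at least 31.8-fold and at least 48.5-fold above them by counts. In share of cells Krt73 was 3.95-fold and 4.43-fold above the floor of 3 cells.

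Of the type I keratins, Krt25 had 0, 0 and 509 counts, the last in 39 cells (16.4 CPM), and was at least 103-fold and at least 157-fold above the controls by counts. In share of cells Krt25 was 7.34-fold and 8.22-fold above the floor of 3 cells. Krt27 had 0 counts in control 1, 4 counts in 1 cell of control 2 (0.139 CPM) and 470 counts in 69 cells of the third library (15.2 CPM, 13.8 to 16.6). By counts it was at least 95.2-fold above control 1 and 109-fold (42.3 to 401) above control 2. In share of cells Krt27 was 13.0-fold above the floor of 3 cells in control 1 and 43.6-fold above control 2. Krt28 differed from the others in that a control held a sizeable number of counts. It had 0 counts in control 1, 61 counts in 2 cells of control 2 (2.13 CPM, 1.63 to 2.73) and 260 counts in 23 cells of the library labelled Vdr cKO (8.40 CPM, 7.41 to 9.48). The ratio by counts was at least 52.6-fold over control 1 and 3.95-fold (2.98 to 5.31) over control 2, and its log2 difference between the controls, −1.64, was the widest of the 6. In share of cells Krt28 was 4.33-fold above the floor of 3 cells in control 1 and 7.27-fold above control 2. The log2 folds over the mean of the controls were 4.29 for Krt71, 2.60 for Krt73, 4.12 for Krt25, 3.92 for Krt27 and 2.19 for Krt28, which was at 3.23 over control 1 alone and 1.59 over control 2 alone.

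**Figure D1:**
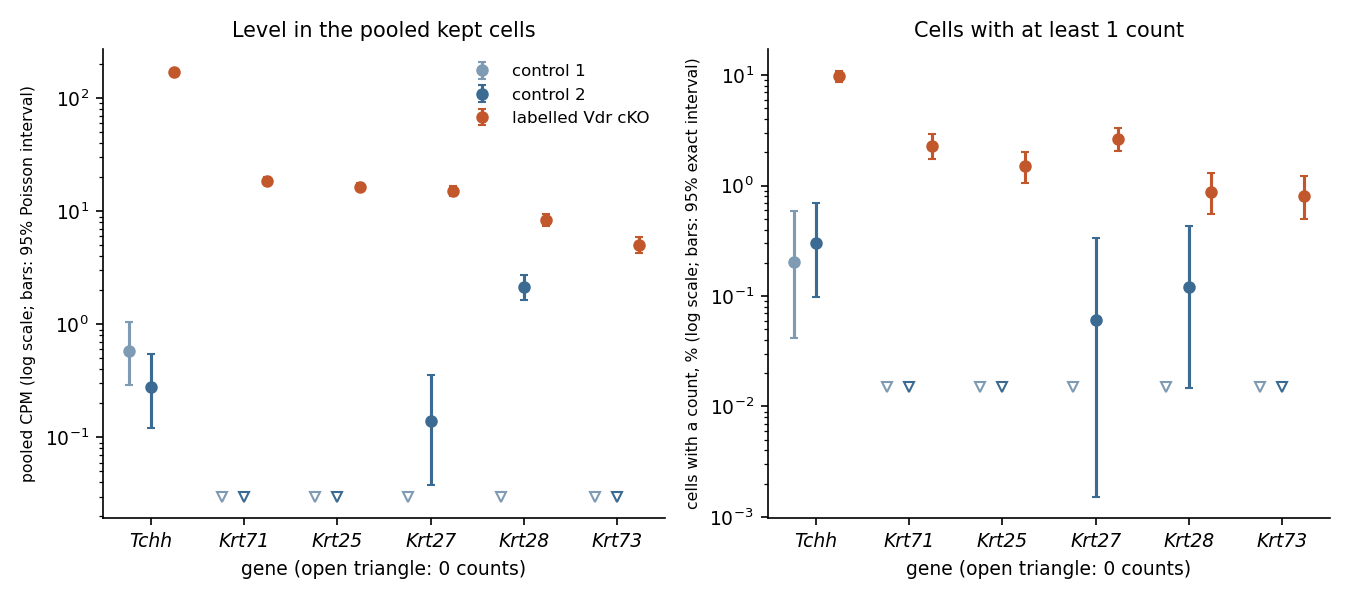
Pooled level in CPM (left, log scale, bars 95% Poisson intervals) and percent of kept cells with at least 1 count (right, log scale, bars 95% exact intervals) of the 6 genes in the 3 libraries, with open triangles, whose height has no meaning, for a gene with 0 counts. For each gene the library labelled Vdr cKO lies above both controls, for example Tchh at 171 CPM against 0.585 and 0.279 CPM.

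At the same number of counts per cell the library labelled Vdr cKO was again the highest for each gene. After each cell was thinned to 1000 counts, which left out 14, 61 and 60 shallower cells, Tchh was found in 1 of 1466, 0 of 1597 and 115 of 2562 cells (4.49%, 3.72 to 5.36). Thinned Krt71 was found in 29 cells of the third library (1.13%), Krt27 in 30 (1.17%), Krt25 in 20 (0.781%), and Krt28 and Krt73 in 12 each (0.468%). In the controls, the thinned cells held Krt27 and Krt28 in 1 cell each of control 2 and no other keratin of the group.

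The background for these differences was broad. Of the 8806 genes that reached 10 CPM somewhere, the library labelled Vdr cKO was over 2-fold above both controls in 8.83% and over 2-fold below both in 1.79%. With no limit on the level, all 6 members were over 2-fold above both controls, as were 25.6% of all 19927 genes. Only Tchh, Krt71, Krt25 and Krt27 reached 10 CPM, and each of these 4 reached it only in the library where it was high, so that their count is a description. With each control set against the remaining libraries in the same way, 2.99% of the 8806 genes were over 2-fold higher in control 1 and 1.10% in control 2. Of the 8166 genes with at least 10 CPM in the library labelled Vdr cKO, 7 (0.0857%) were at 0 in both controls. Beside the members Krt71 and Krt25 and the label check Xist, these were Prr9 (26.7 CPM), Krtap7-1 (24.9 CPM), Krtap8-1 (17.3 CPM) and Fam167a (12.0 CPM); Krtap7-1 and Krtap8-1 encode keratin-associated proteins of the hair shaft. Fam167a is named because this list was short, after its values were seen.

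The counts were concentrated in few cells. The 3 cells with the most Tchh held 1742, 891 and 797 counts, together 64.6% of all Tchh counts of the library labelled Vdr cKO, and the leading 10 cells held 75.7%. In contrast, 87 of the 256 cells had a single Tchh count, the median cell with Tchh had 2.00, and 48 cells had 10 or more. The 26 cells (1%) with the most counts of a gene held 84.3% of Tchh, 90.4% of Krt71, 97.4% of Krt25, 87.2% of Krt27 and 100% of Krt28 and Krt73. The median over the 8166 genes of that library with at least 10 CPM was 54.8%. For the leading 10 cells, the shares were 77.0% for Krt71, 88.8% for Krt25, 67.0% for Krt27, 83.1% for Krt28 and 86.0% for Krt73, against a median of 30.5%. A gene found in few cells, as Krt28 in 23 and Krt73 in 21, reaches 100% by that alone. The 8166 genes were found in a median of 187 cells, against 39 for Krt25, 60 for Krt71, 69 for Krt27 and 256 for Tchh. The shares were therefore not compared at a like number of cells.

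**Figure D2:**
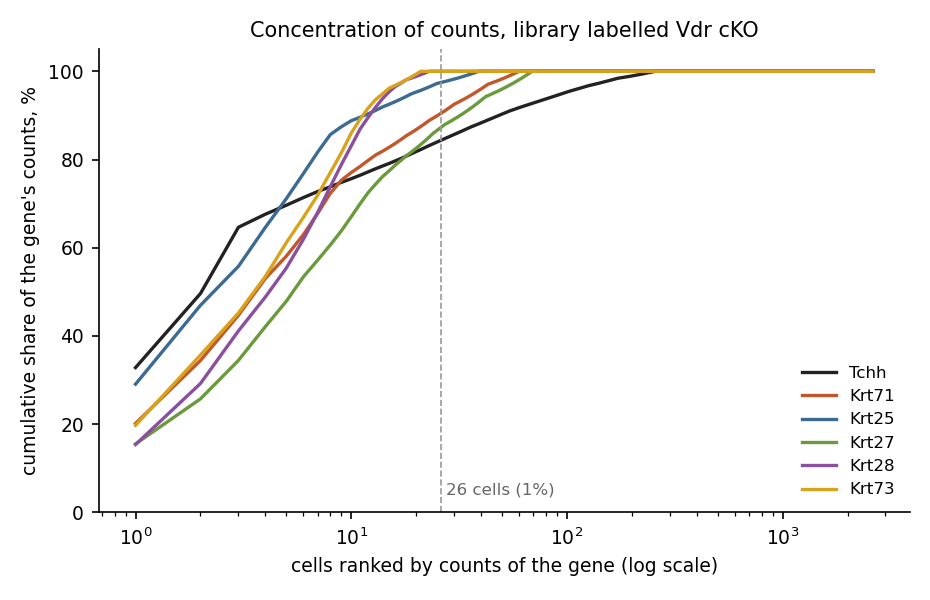
Cumulative percent of each gene's counts in the library labelled Vdr cKO (y axis) over cells ranked from the most to the fewest counts of that gene (x axis, log scale), with a dashed line at 26 cells, 1% of the 2622. The Tchh line starts highest, with 64.6% in 3 cells, and then runs on to 256 cells, whereas the keratin lines end between 21 and 69 cells.

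Members were found in the same cells more often than their single shares give under independence. In the library labelled Vdr cKO 2243 cells held no member, 327 held 1, 35 held 2, 7 held 3, 2 held 4, 6 held 5 and 2 held all 6. At least 2 members were found in 52 cells (1.98%, 1.48 to 2.59), where independence over all cells gives 25.8 and independence within 10 bins of cells by depth gives 28.2. For at least 3 members the numbers were 17 observed against 0.700 and 0.953, and for at least 4 members 10 against 0.00956 and 0.0186. After thinning, which is 1 random draw, 19 of 2562 cells (0.742%, 0.447 to 1.16) held at least 2, against 6.05 and 6.48. No cell of either control held 2 members. Of the 52 cells, 5 had a barcode that another library shared. Without the shared barcodes, 47 of 2602 cells held at least 2 members against 23.3 under independence, 14 held at least 3 against 0.589, and 8 held at least 4 against 0.00743.

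Each pair of members was found together in more cells than independence gives. The ratio of observed to independent cells cannot exceed the number of all cells over the cells of the commoner gene, which is 10.2 for a pair with Tchh and between 38.0 and 114 for a pair of keratins, so that the ratios were not ranked between these kinds of pair. Over the 10 pairs of keratins it ran from 4.96 to 35.2 with a median of 12.9, and within the bins of depth from 4.23 to 31.7 with a median of 11.9. Over the 5 pairs with Tchh it ran from 2.23 to 5.36 with a median of 4.20, and within the bins from 2.04 to 4.67. The type I keratin Krt25 and the type II keratin Krt73 were found together in 11 cells against 0.312. Krt28 and Krt73 were found together in 6 cells against 0.184, and Krt71 and Krt73 in 10 cells against 0.481. Of the 21 cells with Krt73, 52.4% also held Tchh, 52.4% held Krt25 and 47.6% held Krt71. Of the 60 cells with Krt71, 46.7% also held Tchh, whereas 10.9% of the 256 Tchh cells held Krt71. The Pearson correlation over the 2622 cells, a description over cells that share 1 library, was highest for Krt25 with Krt73 (0.44) and Krt71 with Krt73 (0.42) and lowest for Tchh with Krt28 (0.03). Observed pairs numbered between 3 and 28 cells, and the cells of a pair overlap with those of other pairs.

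**Figure D3:**
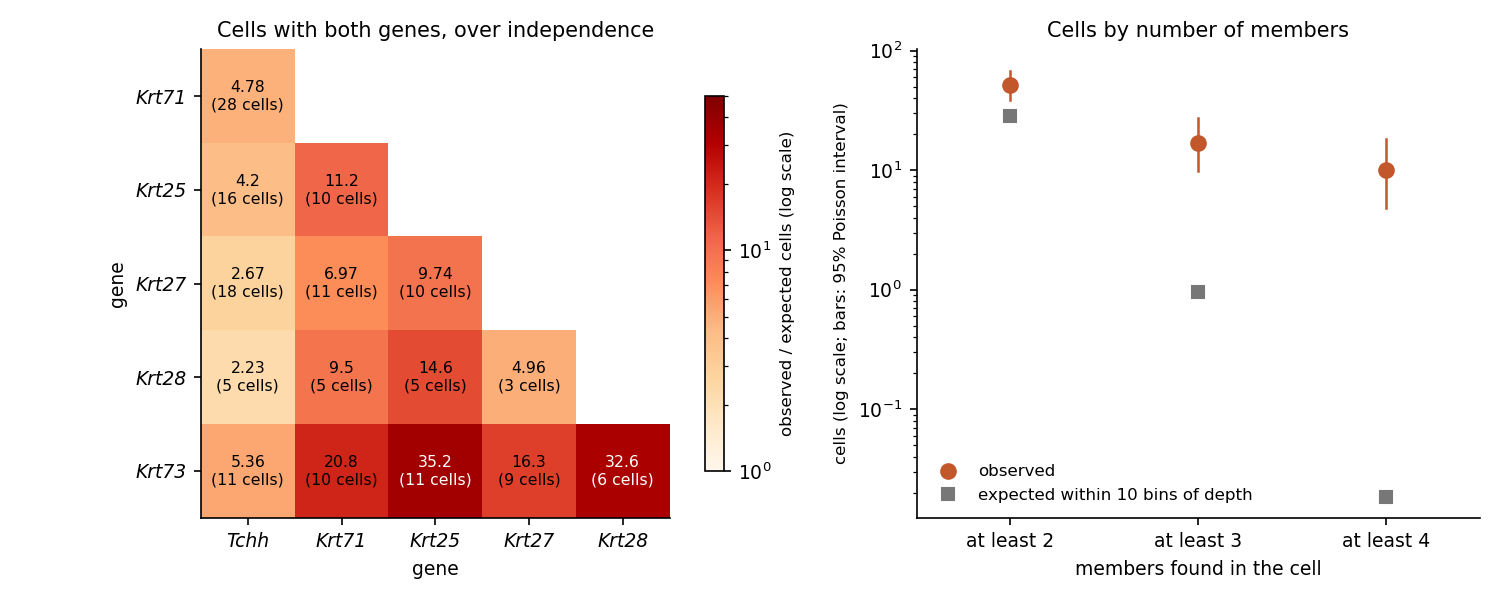
Left, ratio of observed cells with both genes to the cells expected if the genes were found independently (colour, log scale), with the observed cells in parentheses, for each pair in the library labelled Vdr cKO; right, cells with at least 2, 3 or 4 members (log scale, bars 95% Poisson intervals) beside the number expected within 10 bins of cells by depth. Each pair lies above 1, for example 4.78 for Tchh with Krt71, whose highest possible ratio is 10.2, and the gap to the expected number widens from 52 against 28.2 to 10 against 0.0186 cells.

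The 10 cells with at least 4 members carried much of each gene and differed in which members they held. They were 0.381% of the cells and held 1.44% of all counts, but 70.3% of Tchh, 64.5% of Krt71, 49.5% of Krt25, 54.5% of Krt27, 27.7% of Krt28 and 60.5% of Krt73. In the 3 cells with most Tchh, of 7035, 4448 and 3705 counts, Tchh was 24.8%, 20.0% and 21.5% of all counts and the 6 members together 28.2%, 23.0% and 25.3%. These 3 cells had 444, 421 and 649 detected genes, below the median of 688 per cell in that library. The barcodes of the first and the second of these cells differed by 2 bases; kept barcodes of that library formed 683 pairs 2 bases apart, where the base shares at each position give 304, and whether these were separate cells was not tested. The 4 cells with the most member counts held Krt71, Krt25, Krt27 and Krt73 but no Krt28. Krt28 was found in the fifth and sixth cells, which held little or no Tchh. The fifth cell held 0 Tchh, 26 Krt71, 45 Krt25, 15 Krt28 and 25 Krt73 counts, and the sixth held 4 Tchh, 10 Krt71, 36 Krt27, 40 Krt28 and 12 Krt73 counts. The tenth cell held all 6 members, with 2 Tchh, 16 Krt28 and 13 Krt73 counts among 2533. The eighth and ninth cells were unlike the others, with 158910 and 184137 counts, 9866 and 10096 genes and barcodes shared with another library, and held 71 and 65 member counts. Leaving out all shared barcodes left Tchh at 171 CPM, Krt71 at 18.2, Krt25 at 16.2, Krt27 at 14.7, Krt28 at 8.49 and Krt73 at 4.69 CPM.

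**Figure D4:**
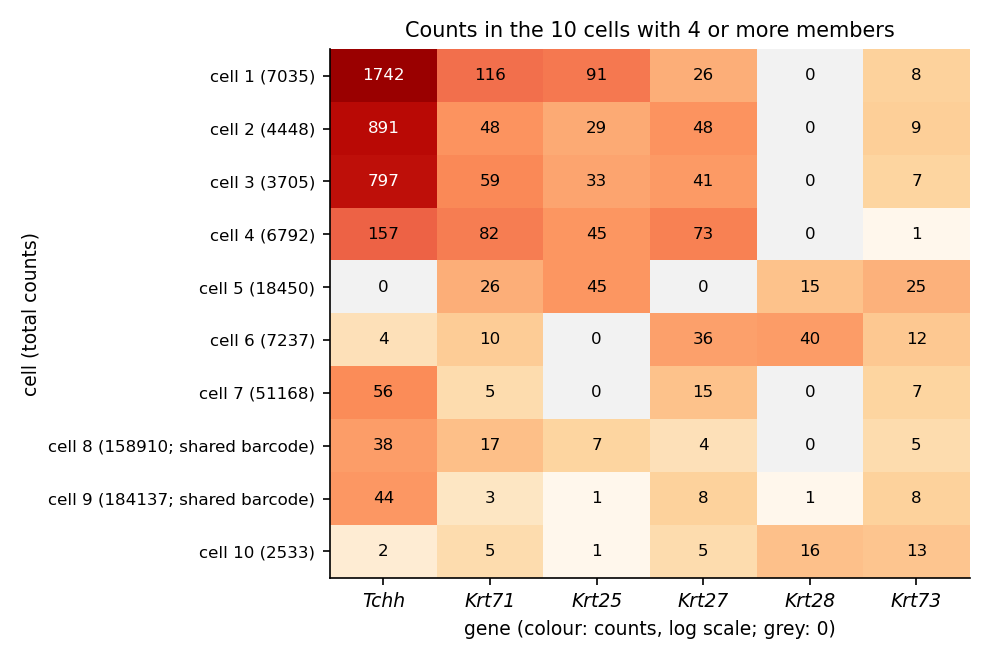
Deposited counts of the 6 genes (columns, colour on a log scale, grey for 0) in those 10 cells, each with 4 or more members, from the library labelled Vdr cKO (rows, total counts in parentheses, ordered by summed member counts). Cells 1 to 4 hold no Krt28, whereas cells 5, 6 and 10 hold 15, 40 and 16 Krt28 counts with 0, 4 and 2 Tchh counts. Cell 9 holds 1 Krt28 count with 44 Tchh counts.

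Outside those cells the members were lower but still above the controls. Without the 10 cells, Tchh was at 51.6 CPM in 247 cells, Krt71 at 6.69, Krt25 at 8.42, Krt27 at 7.01, Krt28 at 6.16 and Krt73 at 2.03 CPM, so that of the 6 only Tchh kept 10 CPM. Without all 52 cells with at least 2 members, Tchh was at 41.3 CPM in 211 cells, Krt71 at 3.39, Krt25 at 1.46, Krt27 at 5.66, Krt28 at 4.85 and Krt73 at 0.949 CPM. The 52 cells, which the members themselves define, held 91.6% of the Krt25 counts, 82.6% of Krt71, 82.2% of Krt73, 77.1% of Tchh, 64.5% of Krt27 and 45.0% of Krt28. Tchh was the sole member in 211 cells, whose 1217 counts made 22.9% of the gene, and a single keratin was the sole member in 116 cells.

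Clusters of the 5760 kept cells, formed without the 6 genes among the variable genes, placed these cells in several groups at the main setting, resolution 0.5. The 10 cells with at least 4 members lay in clusters 1 (3 cells), 2 (3), 3 (2) and 4 (2) of 9. With resolution 0.3 there were 6 clusters, and 1 of them took in 1395 of the 2622 kept cells with the Vdr cKO label. In it lay 6 of the 10 cells and 29 of the 52, close to what its size alone gives. It also had the largest share of each gene. This was 83.8% for Tchh, 82.3% for Krt27 and 74.8% for Krt71, but 49.2% for Krt28, 49.1% for Krt25 and 47.1% for Krt73. By level, each gene was higher in that cluster than in the other cells of the library. Krt28 was at 28.8 against 4.98 CPM, Krt25 at 56.3 against 9.77 CPM and Krt73 at 16.7 against 3.13 CPM. The Tchh level within a cluster ran from 13.2 CPM in cluster 6 to 2764 CPM in cluster 2, but without the 10 cells it was 82.2 CPM in cluster 2 and highest, 228 CPM, in cluster 1. Cluster 1 drew 780 cells from the library labelled Vdr cKO but 46 and 49 from the controls, and its leading genes by fold over other cells were S100a3 (102 CPM), Krt27 (72.7 CPM) and Reps1 (69.2 CPM). At resolution 0.5 cluster 1 held 44.5% of the Krt27 and 36.2% of the Krt28 counts. Cluster 3 held 46.4% of Krt25 and 41.4% of Krt73, a division that was not present at resolution 0.3. The leading genes of cluster 3 were Cenpf, a gene of dividing cells, Pinlyp and Usp12. Its summed level of 6 cycling genes (517 CPM) was below that of cluster 8 (635 CPM). Of the 9 clusters it had the highest summed level of 7 basal or outer root sheath genes (21210.3 CPM). The shares of cluster 3 rest on few cells. Krt25 was in 8 of its cells, of which 1 held 148 of its 236 counts, and Krt73 was in 5. By cells, Krt25 was in 1.32% of cluster 3 and 1.49% of all cells of that library, and Krt73 in 0.825% and 0.801%. With the members allowed among the variable genes the leading cluster held 59.4% of Krt27. Thinned to 1000 counts, Tchh was found in 7.41% (5.66 to 9.50) of cells in cluster 1, 5.26% in cluster 0, 4.12% in cluster 2, 3.80% in cluster 3 and 1.61% (0.441 to 4.08) in cluster 4. In cluster 8, led by Cd207, a marker of Langerhans cells, and highest in Cd74, 3 of 25 cells (12.0%, 2.55 to 31.2, median depth 6036 counts) held 6 Tchh counts in all, and 0 of 25 did after thinning (exact interval up to 13.7%; 3 counts in 25 cells, the floor used here, are 12.0%). In cluster 7, highest in the granular layer gene Lor (loricrin), Tchh was found in 8.24% of 85 cells (median depth 13881) and in 2.35% (0.286 to 8.24) after thinning. The 9.76% over all cells of that library (median depth 4055) was not above the share in cluster 8 at the depth as deposited, so that it is not read as a share of expressing cells. At equal depth the interval of cluster 1 lay above those of clusters 3 (up to 5.64%), 4, 5 (up to 4.56%) and 6 (up to 3.33%). It overlapped those of clusters 0, 2 and 7 and lay within that of cluster 8. What part of the low Tchh counts came from free RNA was not tested. The 2 cells of control 2 with Krt28 lay in cluster 6, which was led by Cd36 and had the highest summed level of 5 sebaceous genes (12806 CPM). In the library labelled Vdr cKO, 3 of 109 cells of cluster 6 also held Krt28, with 37 counts (18.8 CPM, against 7.69 CPM in the other cells). Krt28 was higher in clusters 1 (32.7 CPM) and 2 (23.1 CPM) and lower in the remaining clusters. Without the 10 cells it was at 13.3 CPM in cluster 1 and 23.5 CPM in cluster 2. After thinning, 1 of 109 cells of cluster 6 held Krt28 (0.917%, 0.0232 to 5.01).

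**Figure D5:**
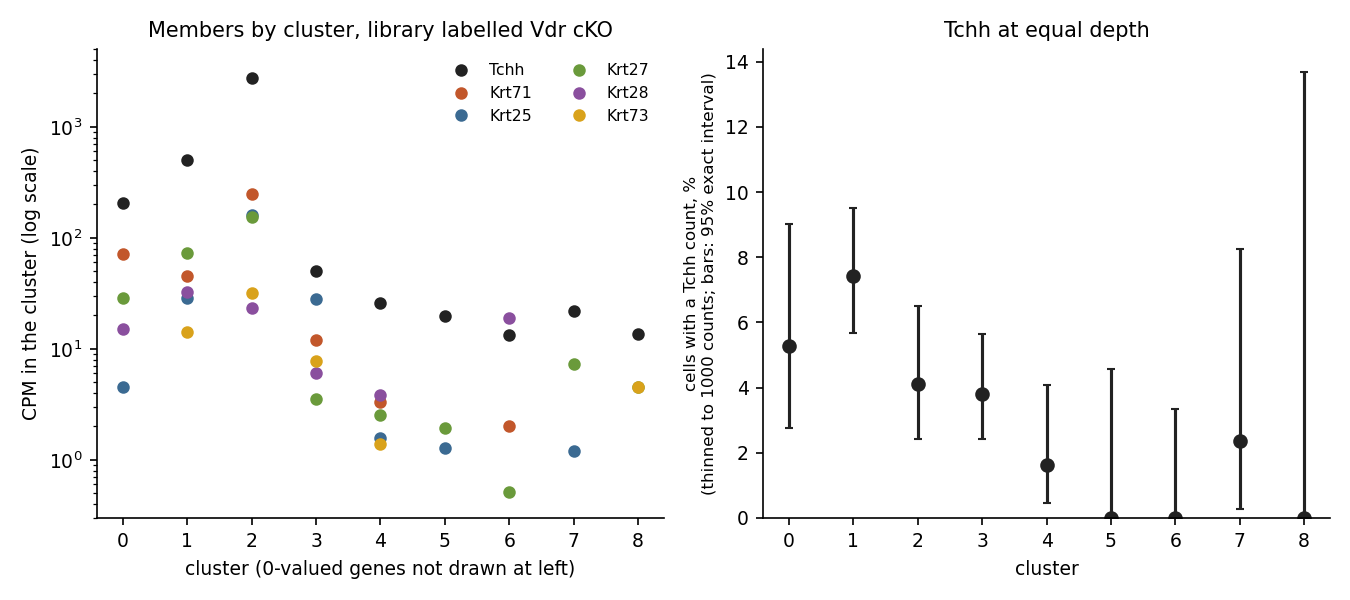
Left, level of each gene within each of 9 clusters of the library labelled Vdr cKO (CPM, log scale, genes at 0 not drawn); right, percent of cells with a Tchh count after thinning to 1000 counts per cell, with 95% exact intervals. Tchh runs from 13.2 to 2764 CPM, and at equal depth from 0 in clusters 5, 6 and 8 to 7.41% in cluster 1, with intervals that overlap between most clusters.

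The gene whose pattern over cells was most like that of the members was Prr9, a proline-rich gene of the cornified envelope gene region. Among 8162 genes with at least 10 CPM and a count in at least 1% of the cells, Prr9 had the highest Pearson correlation with Tchh (0.26), Krt71 (0.26), Krt25 (0.29), Krt27 (0.27) and Krt73 (0.34), and with the sum of the 6 (0.25). For Krt28 the highest was Uhrf1bp1l (0.25), and the hair shaft keratins Krt33a (0.21) and Krt35 (0.18) were among its leading 5. Uhrf1bp1l (0.25) and Krt33a (0.22) were also among the leading 5 of Krt73. Prr9 was found in 92 cells, 9 of which were among the 10 with at least 4 members, was at 209 CPM in the 52 cells with at least 2 members and 17.7 CPM in the others, and was at 0 in both controls. S100a3, a calcium-binding protein of the hair cuticle, was next for the sum (0.17), at 147 and 15.3 CPM in the same groups of cells, and at 1.01 and 11.0 CPM in the controls. These correlations are weak, rest on few cells of 1 library and describe likeness only. Prr9 and S100a3 were picked by them, and the members define the 52 and the 10 cells. The values of both genes in those cells are therefore no separate evidence.

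A list of 32 other genes of the IRS and of trichohyalin processing was called at shares not far from those of all genes. The list also holds genes of the granular layer and of desmosomes, such as Flg, Flg2, Dsp and Pkp1, so that its values are not those of the IRS alone. Of the 22 that reached 10 CPM, 2 (9.09%, against 8.83% of all genes tested) were over 2-fold above both controls, 1 (4.55%, against 1.79%) was over 2-fold below and 19 were neither, with a median log2 fold of −0.10 against 0.14 for all genes tested. The transcription factor genes Foxc1 (15.6, 17.4 and 57.2 CPM) and Msx2 (1.81, 2.34 and 12.1 CPM) were higher, and Flg (filaggrin), a granular layer protein, was lower (880.4, 834 and 412 CPM). Gata3, a transcription factor of the IRS, was at 645, 598 and 744 CPM and was found in 69.2% (54.9 to 81.3) of the 52 cells and in 62.0% of the others.

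Of the 10 list genes below 10 CPM, 9 were at 0 in both controls and above 0 in the library labelled Vdr cKO, and some lay in the same cells as the members. The libraries listed 14814, 16333 and 18173 genes. With no limit on the level, 25.6% of all 19927 genes were over 2-fold above both controls, against 8.83% of those that reached 10 CPM. The share among genes below 10 CPM was therefore higher than 25.6%. The share of all genes below 10 CPM that were absent from both controls was not computed, so that the 9 of 10 is a description. Krt26 (type I) had 41 counts in 6 cells of the library labelled Vdr cKO (1.32 CPM) and 0 in the controls, and 92.7% of them were in the 52 cells. Krt72 (type II) had 10 counts in 2 cells, and the pseudogene Krt74 was not among the listed genes. Padi3, which deiminates trichohyalin, had 0, 0 and 56 counts (1.81 CPM), the last in 12 cells, of which 4 were among the 52 (20.6 CPM there and 0.881 CPM in the others). Padi1 had 23 counts in 4 cells, none of them among the 52. Tgm3, which cross-links trichohyalin, was at 12.5, 11.9 and 20.3 CPM, not past 2-fold, and at 29.5 CPM in the 52 cells and 19.8 CPM in the others. The trichohyalin relatives Tchhl1 (108 counts in 18 cells) and Crnn (cornulin, 89 counts in 9 cells) were at 0 in both controls, with 64.8% and 82.0% of their counts in the 52 cells.

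Xist and Y-linked counts were both present in the cells that carried members. Of the 52 cells with at least 2 members, 16 had an Xist count and 7 a count of the 4 Y-linked genes; among the 2243 cells without a member, 609 and 233 did. The part of the Xist-carrying cells in the levels was not tested.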

How the data were processed

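Cells from trypsin-treated dorsal skin were captured in droplets (Nadia, RNAdia 2.0 kit) and sequenced on a NovaSeq. The authors deposited, for each of 3 libraries, a matrix of whole-number counts per gene and barcode of 12 bases, and the submitters' processing notes name the mm10 build. The methods name Seurat v4 for alignment; the aligner, annotation and rule for collapsing copies are not given in the sources used here. Samples were grouped by the genotype label.

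From these counts, 5760 barcodes entered as cells, with 200 or more detected genes and no more than 20% of counts from mitochondrial genes. No doublet caller was run. Counts were pooled per library as CPM, and log2 folds were taken after 1 CPM was added. Cells were thinned to 1000 counts with a fixed seed. Cell clusters were made with Seurat 5.3.0 (2000 variable genes without the members, 10 components, resolution 0.5), and scaling alternatives with edgeR 4.0.16 and DESeq2 1.42.0 in R 4.3.3; pandas 2.3.3, scipy 1.17.1 and numpy 2.4.6 under Python 3.11.15 served the other steps. A gene was called when it had at least 10 CPM in a library and the library labelled Vdr cKO was over 2-fold above, or below, both controls. With 1 library labelled Vdr cKO no test across libraries was made.

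The members and lists were chosen with earlier results of these data known. The genes named are the 6 members, the list of 32 genes of the IRS, trichohyalin processing, granular layer and desmosomes where a library stood over 2-fold apart or a gene acts on trichohyalin, label checks, the genes most like the members by correlation over cells, and leading genes of clusters. Other genes are named as chosen after their values were seen. Of the 19927 symbols, 97.6% were found in GENCODE M21. Promoter windows are from RefSeq, and all 6 members matched. Levels were not compared between genes, since read coverage along transcripts is unknown. Alternatives were other filters on cells, barcodes 1 base apart merged, other scalings, thinning depths, and cluster settings.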

Additional observations from a re-analysis of the deposited data

Results flagged for a closer look

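Barcodes that did not pass the limits on cells, outside the values above, also held members in the library labelled Vdr cKO and were looked at again for that reason. Under 160 such barcodes, Tchh had 275 counts, in 5 barcodes, of which 264 were in 1 barcode, and Krt71 had 28 counts, in 2 barcodes, of which 27 were in 1. Of the 5 barcodes with Tchh, 4 had fewer than 200 genes and 2 had more than 20% mitochondrial counts. In the controls, the 1308 and 802 barcodes left out held 0 counts of both genes.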

How the results depend on the processing

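All 6 members were over 2-fold above both controls under 12 of the 13 alternatives that keep both controls, and 4 were with 10 CPM added. The lowest and highest log2 folds were 4.12 and 7.51 for Tchh, 1.51 and 5.46 for Krt71, 1.30 and 4.84 for Krt25, 1.32 and 5.24 for Krt27, 0.73 and 3.23 for Krt28 and 0.59 and 3.39 for Krt73, most of the lowest with 10 CPM added, which shrinks folds of low genes by construction. The number of members called was 4, from 4 to 5 under other filters and scalings, 4 without control 1 and 4 without control 2, and 1 without the cells with 4 or more or with 2 or more members, alternatives added after seeing the data. TMM and median-of-ratios factors moved the median log2 fold of all genes tested by −0.18 and −0.21. The percent of all genes called was 4.06 at 50 CPM and 25.6 with no limit on the level. The percent of cells with at least 2 members was 1.17 when thinned to 2000 counts and 1.98 without thinning, and between 0.535 and 0.977 under the other alternatives. Each thinned value comes from 1 random draw, whose spread was not measured. Merging barcodes 1 base apart left 52 such cells without thinning, but 25 of 2560 instead of 19 of 2562 cells after it. Of 90 log2 folds of single members under these 15 alternatives, 42 moved beyond their counting or control spread and 0 fell below 0. No paired analysis was possible because the labels record no pairing between the controls and the single library labelled Vdr cKO, and no test was made. The floor of 3 counts, 0.160 CPM in control 1 and 0.105 CPM in control 2, is a convention for a gene with 0 counts and not a limit of detection.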
